A study of Solanum lycopersicum with 6 samples.

Results

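The 10 genes described here are MADS-box genes of tomato (Solanum lycopersicum), listed together for the flowering transition and the shaping of the inflorescence. The flowering transition is the switch from leaf-making to flower-making meristems. The 10 were chosen by gene ID from a list that gives each ID its name, with earlier results of these data known. Shares of all genes set beside their counts are therefore a description. All 10 were found once in each deposited table, among 34075 gene IDs. They are FUL1 (Solyc06g069430.3), FUL2 (Solyc03g114830.3), MBP20 (Solyc02g089210.4) and MBP10 (Solyc02g065730.2) of the FRUITFULL clade, MACROCALYX (Solyc05g056620.2) of the APETALA1 clade, J2 (Solyc12g038510.2), EJ2 (Solyc03g114840.3) and LIN (Solyc04g005320.3) of the SEPALLATA4 clade, JOINTLESS (Solyc11g010570.2) of the SVP clade, and STM3 (Solyc01g092950.3) of the SOC1 clade. Gene names are absent from the files, so the names rest on that list. For MACROCALYX the pairing carries a doubt: in the RefSeq gene table (assembly SLM_r2.1) MADS-MC, the symbol of that gene, lies beside RIN on chromosome 5, and whether Solyc05g056620 is the same locus could not be checked.

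RNA was sequenced from dormant axillary buds, the side-shoot buds that sit in leaf axils, of plants 25 days after germination. All plants were of the cultivar labelled MT, and 3 genotypes were sampled with 2 samples each. They were the wild type (MT), 156OE, known from the study as an overexpressor of the microRNA miR156, and rSBP15, known from the study as carrying a form of SBP15 that miR156 does not target. The titles of the rSBP15 samples read rSBP15OE, with the same ending OE as those of 156OE. The labels give neither the promoters nor the number of independent lines. A sample was a pool of around 20 buds of 4 to 5 plants, and nothing in the labels ties the samples to separate plantings, so p-values measure the spread between such pools. Both lines were compared with the same MT samples.

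MADS-box proteins bind DNA as dimers and larger complexes, and different clades take part in one another's complexes. FRUITFULL, APETALA1 and SEPALLATA proteins mark and drive the passage of a meristem towards a flower, while SVP-type and SOC1-type proteins act around the floral transition. In Arabidopsis, SBP-box transcription factors, which miR156 represses, activate FRUITFULL, APETALA1 and SOC1. In tomato, miR156 likewise targets SBP-box transcripts. The comparisons below ask how the 10 genes stood in buds where miR156 was raised and in buds with the miR156-resistant SBP15.

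Each of the authors' deposited tables lists 1 log fold change with 1 p-value for a gene, without values of single libraries, so neither levels nor sequencing depth are known here. Values are given in the deposited log units, whose base the headers do not name. A gene listed at exactly 0 is called undetected. All 10 genes had a value other than 0 in both tables, as did 24920 genes in that for 156OE and 25329 in that for rSBP15. The spread between replicate libraries was recovered from each p-value as a residual standard deviation (residual SD), which for 2 libraries against 2 is also the standard error of the log fold change before moderation. From it follow the widest gap that the replicates of a genotype can have, and whether the libraries of 2 genotypes must lie apart or must overlap. Intervals are 95% intervals of the limma-type test, and adjusted p-values are Benjamini-Hochberg values over all detected genes with a threshold of 0.05. In bulk samples, fewer cells of a type and less RNA per cell cannot be told apart.

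As checks on the labels, the authors' deposited tables listed Solyc10g078700.3, the ID set down for the rSBP15 label, at -0.51 in 156OE and 0.52 in rSBP15. Its adjusted p-values were 0.279 and 0.114 (limma-type test). All 6 IDs set down as markers of axillary buds and their boundaries were detected in both tables, though what each ID marks was not checked. All 6 were below 0 in both lines, as most of the 10 genes were. Of all detected genes, 50.7% were below 0 in 156OE and 49.5% in rSBP15. The medians of the 6 in the authors' deposited tables were -0.25 in each line. At an unadjusted p under 0.05, 5 of the 6 were lower in 156OE, against 7.30% of detected genes, and 4 of the 6 in rSBP15, against 16.2%. In rSBP15 2 of them fell past the adjusted threshold of 0.05 used below (limma-type test), against 5.58% of detected genes. These were Solyc07g062840.3 (-1.13 in the authors' deposited table, adjusted p 0.0314) and Solyc07g066250.1 (-0.17, adjusted p 0.0237). In 156OE none passed it, against 0.0201%. The authors' deposited tables also gave Solyc11g069030.3 (-0.20 and -0.31) and Solyc02g083950.3 (-0.14 and -0.19) such an unadjusted p in both lines. The part of these bud markers in the values of the 10 genes was not tested.

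In 156OE buds all 10 genes had a log fold change below 0 in the authors' deposited table, where 50.7% of detected genes did. Their median was -0.58, against -0.00059 over all detected genes. The largest values in size were those of MACROCALYX at -1.24, J2 at -1.00 and EJ2 at -0.73 in the authors' deposited table. None of the 10 passed an adjusted p of 0.05 in the limma-type test, which only 0.0201% of detected genes did. An unadjusted p under 0.05 was listed for 6 of the 10, against a background of 13.2%, and all 6 were lower in 156OE, against 7.30% of detected genes that were lower at that p. The log fold change was 0.5 or more in size, a limit chosen after values were seen, for 6 of the 10, against 3.68%. The libraries of 156OE and MT must lie apart for 9 of the 10, against 37.9%, and must overlap for STM3 alone, against 48.0%.

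In rSBP15 buds the same genes split. The FRUITFULL-clade genes MBP10, FUL2 and FUL1 were above 0 and the other 7 below 0 in the authors' deposited table, where 50.5% of detected genes were above 0. Of these, MBP10 rose, at 1.00 with an adjusted p of 0.0259 (limma-type test), and it was the only one of the 10 past the threshold, against 5.58% of detected genes. An unadjusted p under 0.05 was listed for 6 of the 10, 3 higher and 3 lower, against 33.3% of detected genes, made up of 17.1% higher and 16.2% lower. The libraries of rSBP15 and MT must lie apart for 9 of the 10, against 62.3%, and must overlap for STM3, against 26.5%. As in 156OE, 6 of the 10 had a log fold change of 0.5 or more in size, here against 11.8%. Taken without sign, the median log fold change was 0.546 for the 10 genes and 0.109 over all detected genes, while in 156OE it was 0.579 and 0.0596. The median residual SD of the 10 was 0.112 against 0.0514 over all detected genes in rSBP15, and 0.104 against 0.0624 in 156OE, with LIN and MBP10 below the median gene in both tables and MBP20 and MACROCALYX below it in 156OE.

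**Figure D1:**
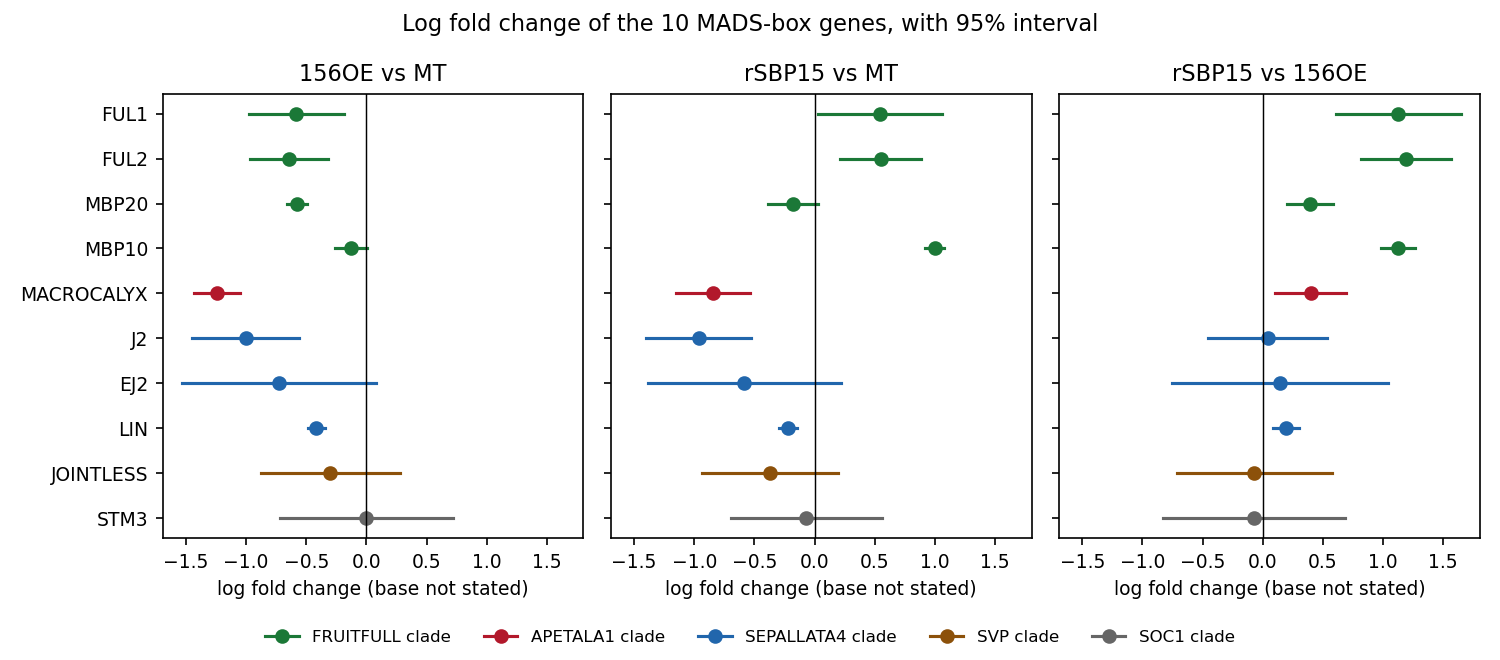
Log fold change of each of the 10 genes (points, in log units of unstated base) with its 95% interval (lines) in the 3 comparisons, coloured by clade. All points lie at or below 0 in 156OE against MT, while FUL1, FUL2 and MBP10 lie above 0 in rSBP15 against MT.

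FUL1 and FUL2 are close relatives best known for their part in fruit ripening, and FUL2 also promotes flowering and restrains inflorescence branching. The authors' deposited tables listed FUL1 at -0.58 in 156OE and 0.54 in rSBP15. The 95% intervals ran from -0.97 to -0.19 and from 0.03 to 1.06, and the adjusted p-values were 0.294 and 0.142 (limma-type test). FUL2 was listed at -0.64 and 0.55 in the authors' deposited tables. Its intervals ran from -0.97 to -0.32 and from 0.21 to 0.88, and the adjusted p-values were 0.250 and 0.0916 (limma-type test). Replicates can lie at most 0.227 apart for FUL1 and 0.188 apart for FUL2 in MT and 156OE, and at most 0.301 and 0.196 apart in rSBP15. For both genes the libraries of the 3 genotypes therefore did not overlap, with 156OE lowest, MT between and rSBP15 highest.

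MBP10, a FRUITFULL-clade paralogue of MBP20, had the smallest replicate spread of the 10 in relation to its change in rSBP15. The 1.00 that the authors' deposited table lists for it was 41.9 times its residual SD of 0.0238, and the interval ran from 0.92 to 1.08. Of all detected genes, 2.80% had a larger size of change in that comparison. For 156OE the authors' deposited table listed -0.13. The interval was -0.26 to 0.004 and the adjusted p 0.383 (limma-type test). Its libraries must be apart there as well, since replicates can differ by at most 0.0758. MBP10 thus has the same order of genotypes as FUL1 and FUL2, with nearly all of the distance between MT and rSBP15. This order, with no overlap, held for 3 of the 10 genes and for 5.53% of the 24592 genes detected in both tables.

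MBP20, which promotes flowering together with FUL2, was the FRUITFULL-clade gene that stood below MT in both lines. The authors' deposited table for 156OE listed it at -0.58. With an interval from -0.66 to -0.49 and a residual SD of 0.0239, this was 24.1 times the spread. The adjusted p was 0.144 (limma-type test). That for rSBP15, also the authors' deposited table, listed -0.18, where the interval was -0.39 to 0.03 and the adjusted p 0.174 (limma-type test). Replicates of MT and of 156OE can lie no more than 0.0478 apart, and those of rSBP15 no more than 0.121.

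MACROCALYX, an APETALA1-type gene needed for sepal growth, for inflorescence determinacy and, with JOINTLESS, for the pedicel abscission zone, had the largest size of change of the 10 in 156OE. The authors' deposited tables listed it at -1.24 there and at -0.84 in rSBP15. The intervals ran from -1.43 to -1.05 and from -1.15 to -0.54, and the adjusted p-values were 0.146 and 0.0597 (limma-type test). Only 0.269% of detected genes had a larger size of change in 156OE, and 4.12% did in rSBP15. The change was 22.4 times the residual SD in 156OE and 9.46 times in rSBP15, so the libraries of either line lay apart from those of MT.

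The SEPALLATA4-clade genes J2, EJ2 and LIN act together to limit inflorescence branching, J2 also in the pedicel abscission zone and EJ2 in sepal size. All 3 were below 0 in both authors' deposited tables. For J2 the authors' deposited tables listed -1.00 in 156OE and -0.96 in rSBP15. Its intervals were -1.45 to -0.56 and -1.40 to -0.53, and its adjusted p-values 0.231 and 0.0691 (limma-type test). EJ2 was listed at -0.73 and -0.58 in the authors' deposited tables. Its intervals were wider, -1.53 to 0.08 and -1.38 to 0.22, and its adjusted p-values were 0.409 and 0.214. LIN had smaller values, -0.42 and -0.22 in the authors' deposited tables. Its intervals were narrow, -0.49 to -0.34 and -0.30 to -0.15, with 0.151 and 0.0578 as adjusted p-values. These genes differed far more in spread than in size of change. Replicates can differ by up to 0.466 for EJ2 in each table, by up to 0.257 for J2, and by no more than 0.0438 for LIN.

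JOINTLESS, which keeps the inflorescence from returning to leaf growth and is needed for the pedicel abscission zone, was listed by the authors' deposited tables at -0.30 in 156OE and -0.37 in rSBP15. The intervals, from -0.88 to 0.28 and from -0.94 to 0.19, reached across 0, and the adjusted p-values were 0.573 and 0.240. The change was 1.81 and 2.26 times the residual SD, enough for the libraries to lie apart. STM3, a SOC1-type gene that acts in the timing of meristem maturation, was listed at -0.0003 and -0.07 in the authors' deposited tables. The intervals were -0.72 to 0.72 and -0.70 to 0.56, and its adjusted p-values were 0.999 and 0.792. With replicates up to 0.415 apart, a change of the size seen for FUL1 or FUL2 was not excluded by the interval of STM3 in 156OE.

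**Figure D2:**
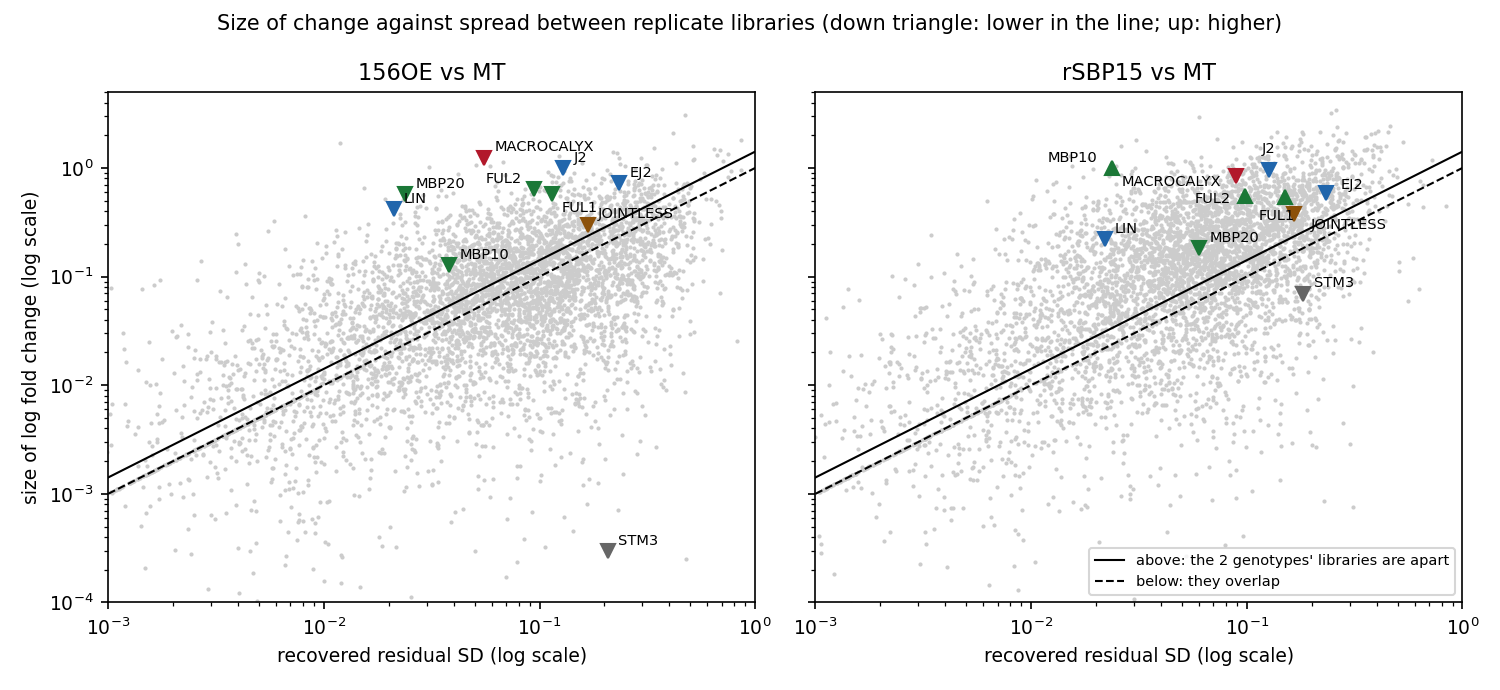
Size of the log fold change against the recovered residual SD (both axes logarithmic) for the 10 genes (triangles, pointing down where the line was lower than MT and up where it was higher) and for a subset of 5132 genes (grey). Above the solid line the libraries of the line and of MT must be apart, and below the dashed line they must overlap: 9 of the 10 genes lie above the solid line in both panels, and STM3 lies below the dashed line.

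To compare the lines with each other, the log fold change in 156OE was subtracted from that in rSBP15, and the difference was tested with the largest residual variance the tables allow. FUL2 had the largest difference of the 10, at 1.19 with an interval from 0.81 to 1.57, followed by FUL1 at 1.13 (0.61 to 1.64) and MBP10 at 1.13 (0.98 to 1.27). Smaller differences in the same direction were those of MACROCALYX at 0.40 (0.10 to 0.69), MBP20 at 0.40 (0.20 to 0.59) and LIN at 0.20 (0.09 to 0.31). These 6 genes had an unadjusted p under 0.05, against 21.7% of detected genes, and all 6 were higher in rSBP15 than in 156OE, against 11.1%. Libraries of the lines must lie apart for the same 6, against 48.4%. None of the 10 passed the adjusted threshold in this limma-type test, which 0.00% of genes did. The adjusted p-values of these 6 genes ran from 0.0991 for MBP10 to 0.169 for MACROCALYX.

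For the other 4 genes the difference was not detectable. It was 0.04 for J2, with an interval from -0.46 to 0.54, and 0.14 for EJ2, with an interval from -0.76 to 1.04. JOINTLESS was at -0.07 (-0.71 to 0.57) and STM3 at -0.07 (-0.83 to 0.69). The intervals of these 4 genes are too wide to show that the lines were alike for them. That of J2, the narrowest, still includes differences of the size seen for MACROCALYX, MBP20 and LIN.

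In a fit of all 6 libraries at the largest residual variance, the difference between the lines passed an adjusted p of 0.05 for FUL1 (0.0234), FUL2 (0.0136), MBP20 (0.0238), MBP10 (0.00520) and LIN (0.0260), against 14.4% of genes. MACROCALYX missed it at 0.0507. In the same fit of rSBP15 against MT the threshold was passed by MBP10 (0.00838), MACROCALYX (0.0201), LIN (0.0256) and J2 (0.0322), against 11.1% of genes. The fit takes the spread of all genotypes as equal, and for 156OE against MT it called 0 of the 10 and 0 genes in all. With the authors' deposited p-values, 5 genes passed the same adjusted threshold (limma-type test), and 3301 had an unadjusted p under 0.05.

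**Figure D3:**
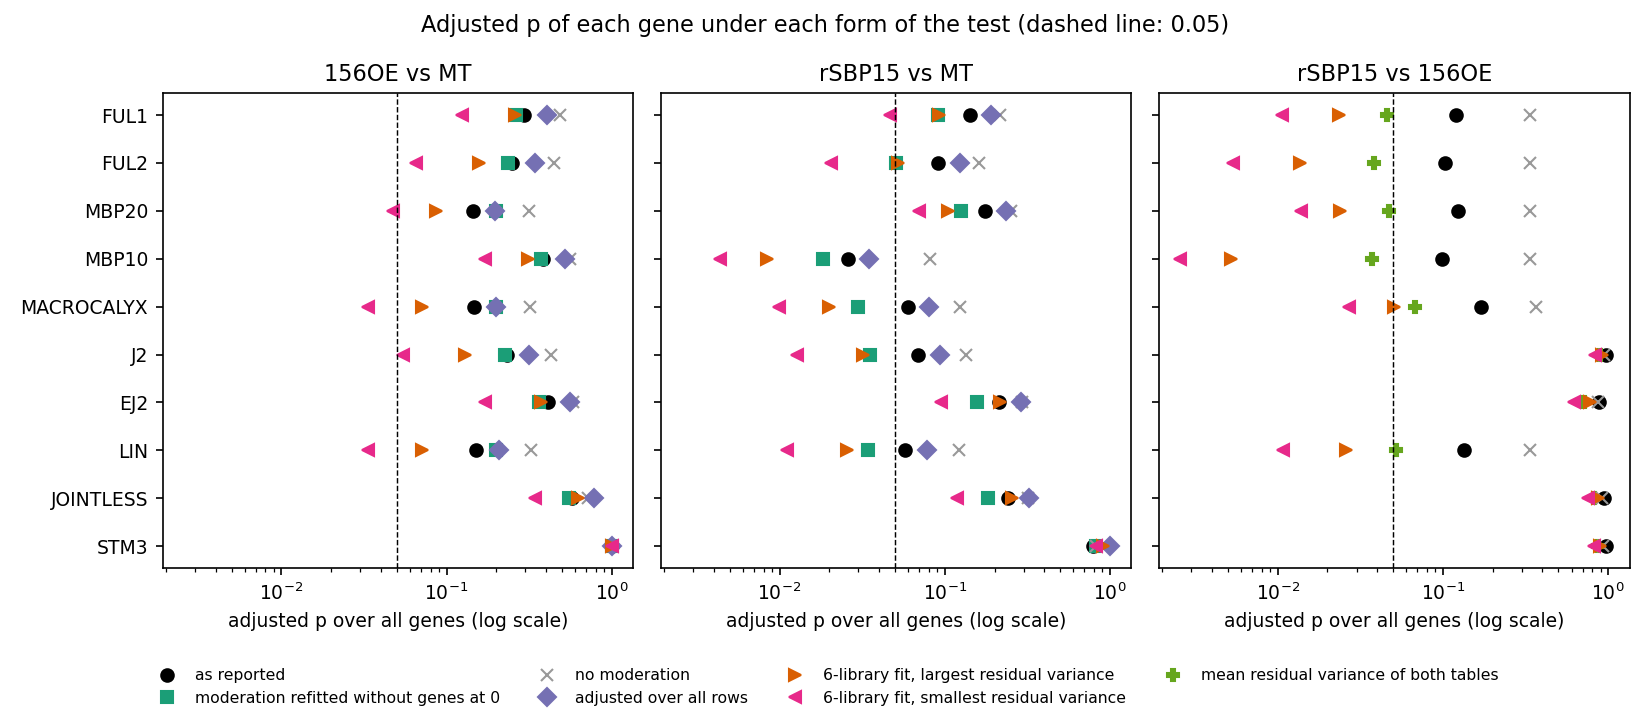
Adjusted p over all genes (logarithmic axis) of each of the 10 genes in the 3 comparisons, with 1 symbol per form of the test and a dashed line at 0.05. In rSBP15 against MT, MBP10 lies left of the line in every form but that without moderation, and STM3, JOINTLESS, EJ2 and MBP20 lie right of it in all of them.

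The residual SDs of some of these genes were nearly the same in both tables. For EJ2 they were 0.233 in each, 0.0546% apart, for JOINTLESS 0.167 and 0.165, and for J2 0.129 and 0.127. Both tables hold the MT libraries, so equal residual SDs mean that the libraries of 156OE and of rSBP15 had the same spread, and this includes the case in which nearly all spread lay between the MT libraries. Which of these held was not tested. Residual SDs within 2% of each other were found for 3 of the 10 genes, against 7.13% of the 24592 genes detected in both tables. MBP20 and MBP10 were at the other end: for MBP20 the residual SD was 0.0239 in the 156OE table and 0.0603 in that of rSBP15, and for MBP10 0.0379 and 0.0238.

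A list of 11 IDs set down as floral organ MADS genes was set beside the 10 genes, since buds could hold floral primordia. Whether each ID marks such primordia was not checked. Of these IDs 9 were detected in each table and 2 were listed at 0. All 9 were below 0 in 156OE and 8 of 9 in rSBP15, against 50.7% and 49.5% of detected genes. Their medians in the authors' deposited tables were -1.14 and -1.03. The lowest values were -1.33 and -1.24. None passed an adjusted p of 0.05 in either table, which 0.0201% of detected genes did in 156OE and 5.58% in rSBP15. At an unadjusted p under 0.05, 4 of the 9 were lower in 156OE, against 7.30% of detected genes. In rSBP15 2 were lower and 1, Solyc05g012020.4 at 0.09 in the authors' deposited table, was higher, a share no larger than the 33.3% of detected genes with such a p. Solyc05g015750.3, at -1.17 and -1.12 in the authors' deposited tables, and Solyc02g089200.4 had such a p in both. Residual SDs within 2% of each other were found for 7 of these 9, against 7.13% of genes detected in both tables. Most floral organ IDs thus had values of the same sign as MACROCALYX, J2 and EJ2, and their part in the values of those genes was not tested.

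**Figure D4:**
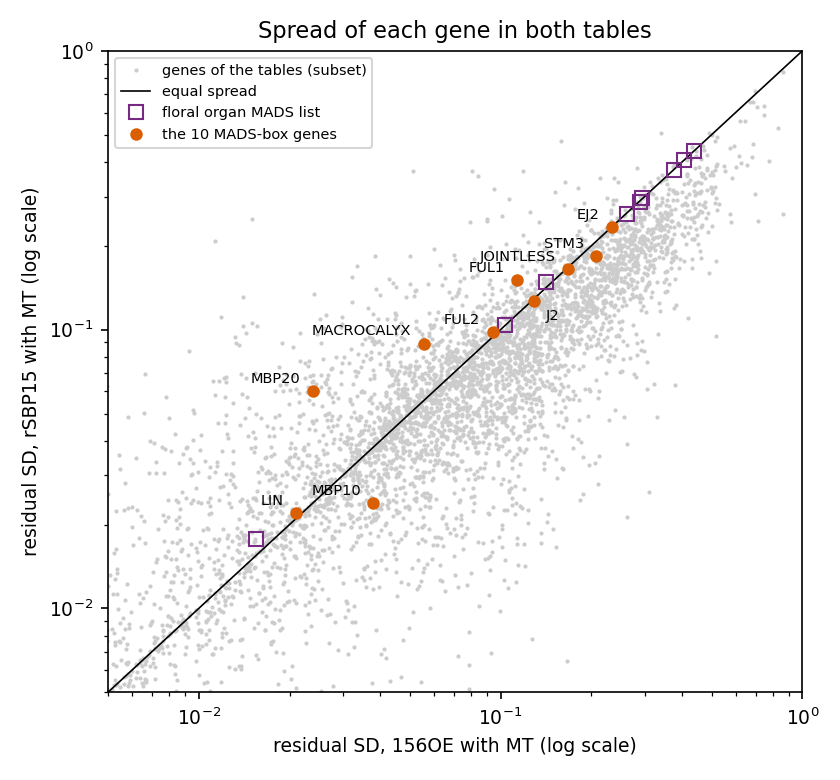
Residual SD of each gene in the table of 156OE with MT against that in the table of rSBP15 with MT (both axes logarithmic), for the 10 genes (orange), the floral organ MADS list (squares) and a subset of all genes (grey). EJ2, J2, JOINTLESS and 7 of the 9 floral organ IDs lie within 2% of equal spread.

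A second list held 15 further IDs of the flowering and inflorescence pathway, of which 13 were detected and 2 were listed at 0 in both tables. In 156OE 12 of the 13 were below 0, against 50.7% of detected genes, and the median in the authors' deposited table was -0.21. There 5 were lower at an unadjusted p under 0.05, against 7.30% of detected genes. In rSBP15 9 of the 13 were above 0, against 50.5% of detected genes, with a median of 0.11 in the authors' deposited table. At that p 2 were higher and 3 lower, against 33.3% of detected genes in either direction. The share of the list with such a p was thus close to that of all genes. None passed an adjusted p of 0.05 in either line, against 0.0201% of detected genes in 156OE and 5.58% in rSBP15. With an unadjusted p under 0.05 in both, Solyc02g081670.1 was listed at -0.87 and -0.90, Solyc03g118160.3 at -0.73 and -0.48 and Solyc02g077390.2 at -0.15 and -0.21 by the authors' deposited tables. All 3 had values of the same sign as MACROCALYX and the SEPALLATA4-clade genes.

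The last list held 8 SBP-box IDs, all detected. In 156OE all 8 were below 0, against 50.7% of detected genes, with a median of -0.62 in the authors' deposited table. Of these, 7 had an unadjusted p under 0.05, against 7.30% of detected genes. The adjusted threshold was passed by 1, Solyc10g009080.4 at -1.71, with 0.0453 (limma-type test), against 0.0201%. In rSBP15 7 of the 8 were below 0, against 49.5% of detected genes, with a median of -0.31 in the authors' deposited table. The exception was the ID set down for the rSBP15 label. At an unadjusted p under 0.05, 3 were lower and 1 higher, against 33.3% of detected genes in either direction. There the adjusted threshold was passed by 1, Solyc12g038520.3 at -0.41, with 0.0332 (limma-type test), against 5.58%.

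**Figure D5:**
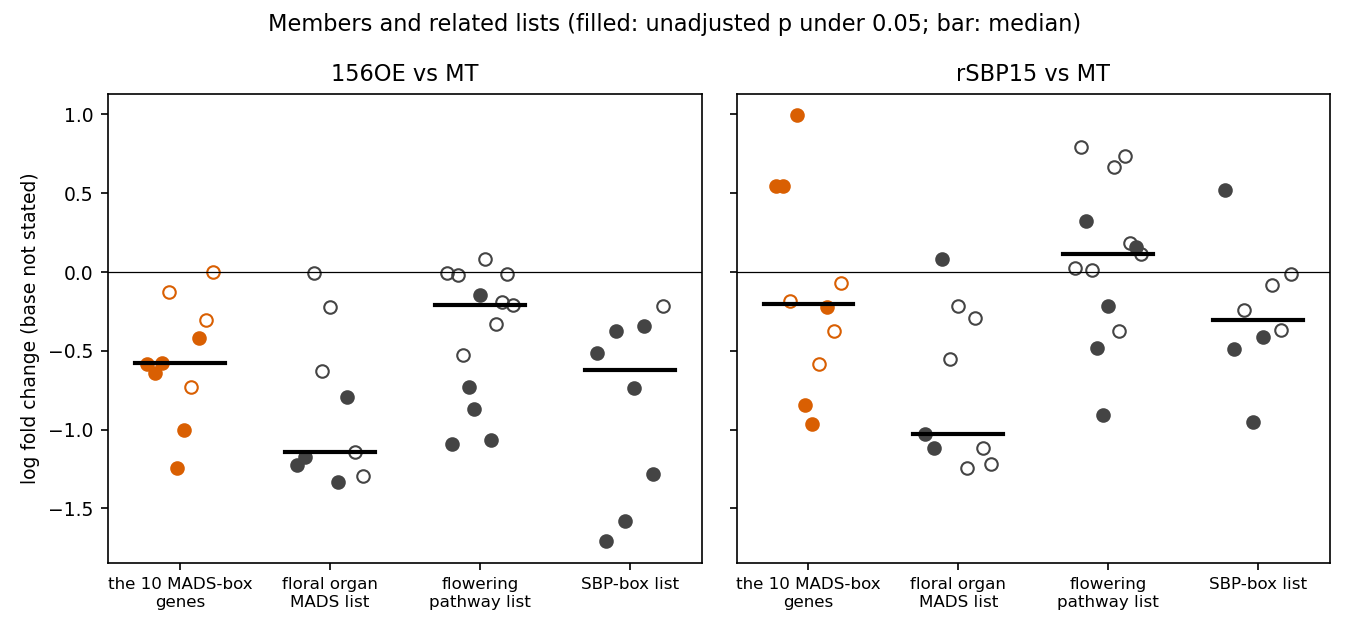
Log fold change (in log units of unstated base) of each detected gene of the 4 lists in both comparisons with MT, filled where the unadjusted p was under 0.05, with the median as a bar. Medians of the floral organ list lie at -1.14 and -1.03, and that of the 10 MADS-box genes at -0.58 in 156OE and -0.20 in rSBP15.

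Tomato IDs are in general numbered along the chromosome, so IDs close in number are mostly those of genes close together. Positions were not checked here. EJ2 has FUL2 on one side, and these neighbours had opposite signs in rSBP15, -0.58 and 0.55 in the authors' deposited table. On its other side lies Solyc03g114850.4 of the SBP-box list, which the authors' deposited tables listed at -1.58 in 156OE and -0.95 in rSBP15. Its adjusted p-values were 0.165 and 0.0581. J2 likewise has an SBP-box ID as its neighbour, Solyc12g038520.3, which the authors' deposited table listed at -0.74 in 156OE (adjusted p 0.167). Next to MBP20 lies Solyc02g089200.4 of the floral organ list, listed at -1.23 and -1.03 by the authors' deposited tables (adjusted p 0.329 and 0.148). The other next IDs with an unadjusted p under 0.05 in both tables were Solyc03g114820.3 before FUL2, Solyc05g056590.4 before MACROCALYX and Solyc01g093960.3, the next listed after STM3 though not close in number. The last of these was listed by the authors' deposited tables at -1.37 and -1.07, where STM3 itself was near 0. For MACROCALYX the neighbour is that of the ID alone, since its pairing with the gene carries the doubt given above.

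For the 5 genes with an unadjusted p under 0.05 in both tables, the genes with the nearest pair of log fold changes were looked up, by Euclidean distance over the 2 comparisons. Solyc04g064770.1 was among the nearest 2 of both FUL1 (distance 0.0247) and FUL2 (0.0851), with values of -0.56 and 0.54 in the authors' deposited tables. Solyc05g015840.3 was nearest to MACROCALYX (0.0880), Solyc06g150133.1 to J2 (0.0716) and Solyc09g011690.4 to LIN (0.00941). A pair of values that share their control is a thin measure of likeness, and the distances are given as a description.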

How the data were processed

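TRIzol RNA of the frozen buds was DNase-treated, and TruSeq stranded libraries were made from its poly(A) fraction, per the labels' protocols. Per the submitters' processing notes, HISAT2 and StringTie were used. Versions, genome build, annotation, expression unit, normalization, filter and test are not given in the sources used here. The authors deposited 2 tables, each with a log fold change (logFC) and an unadjusted p-value for the same 34075 IDs, per the file headers. Samples were grouped by their titles.

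Since the tables hold no counts or values per library, count tests were not run, and depth is unknown. Benjamini-Hochberg adjustment of the deposited p-values ran over detected genes. Genes detected in 1 library lie on a curve of p against logFC that fixes the prior of limma's moderated test: 1224 and 1262 genes lay within 1e-06 of it, with 0.347 and 0.360 prior degrees of freedom. These give each gene's residual variance, and limma 3.58.1 (R 4.3.3) returned the same priors from all rows. Libraries must be apart where the logFC exceeds the residual SD times the square root of 2, and must overlap where it is below the residual SD. The direct comparison of the lines used the sum of both residual variances, their largest possible value, with 2 degrees of freedom, and the 6-library fit 3. The recovery and fits were tested on simulated data. Of the 10 members, 0 IDs matched the RefSeq gene table of 41476 genes, so neither coordinates nor sequences are given.

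All 10 members were to be named whatever their result, non-members of the lists by ID where they passed an adjusted p of 0.05 or had an unadjusted p under 0.05 in both tables. Members and lists were chosen with earlier results of these data known. The lists rest on general knowledge of tomato gene IDs, and the 2% limit on residual SDs and the size of 0.5 were chosen after values were seen.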

Additional observations from a re-analysis of the deposited data

Results flagged for a closer look

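For 3 of the 10 genes the libraries of 156OE all lay below those of MT and the libraries of rSBP15 all above them, in comparisons that share the MT libraries. The same order held for 5.53% of the 24592 genes detected in both tables. The difference rSBP15 minus 156OE was 1.13 for FUL1, 1.19 for FUL2 and 1.13 for MBP10. By the limma-type test of the difference, the adjusted p-values were 0.120, 0.103 and 0.0991 at the largest residual variance, and they ranged from 0.0106 to 0.336, from 0.00538 to 0.334 and from 0.00258 to 0.334 over the 4 alternatives.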

How the results depend on the processing

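No paired analysis was possible because single libraries have no values in the tables. Other normalizations, filters, pseudocounts and fits without a replicate were not run, likewise. Directions cannot change, since each alternative changes the test alone.

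In 156OE against MT the number of all genes past the threshold, 5 as reported, was 0 with the moderation refitted, over all rows, at 0.01 and with the 6 libraries fitted together (largest variance), 1 when a log fold change of 1 or more was also asked for, 2 without moderation and 222 with the 6 libraries at the smallest variance. At that smallest variance 3 of the 10 members passed (MBP20, MACROCALYX and LIN), against 0 otherwise. In rSBP15 against MT, 1414 genes and 1 member as reported, it was 3711 genes and 4 members with the moderation refitted, 2842 and 4 with the 6 libraries at the largest variance, 4999 and 6 at the smallest, 43 and 0 without moderation, 2 and 0 at 0.01, and 175 and 0 when 1 or more in size was asked for. Adjusted over all rows it was 544 genes and 1 member. The member called as reported, MBP10, had adjusted p-values from 0.00435 to 0.0815 over the 5 alternatives. Between the lines, 0 genes as reported, it was 1994 genes and 4 members at the mean variance, 3702 and 5 with the 6 libraries at the largest, and 5961 and 6 at the smallest. The cause of these differences was not tested.

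With 2 libraries per genotype and unknown depth, the width of the intervals of EJ2, JOINTLESS and STM3 limits what can be said of them. The same holds for J2 in the comparison of the lines.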
